A study of Homo sapiens with 12 samples.

Results

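The small nucleolar RNA host genes were examined by RNA-seq in HL-60/S4 cells, a line established from a promyelocytic leukemia. A gene counted as a member when its symbol was SNHG followed by a number, or GAS5, EPB41L4A-AS1, ZFAS1, DANCR or TMEM107. By this rule 33 of the 58288 genes in the table were members, and the rule reads symbols only. The 12 libraries formed 4 groups of 3, since promyelocytes and granulocytes each received either TNF-α or vehicle. Promyelocytes were the undifferentiated cells, and granulocytes had been obtained from the same line by 4 days in ATRA (all-trans retinoic acid, 1 µM). The pro-inflammatory cytokine TNF-α was present for 2 h at 16 ng/mL, and water was the vehicle. Every library came from cells at 8 passages and from its own flask, so the replicates were cultures of 1 line and carried no variation between donors. Promyelocytes and granulocytes were treated in separate experiments, so cell type and experiment cannot be told apart and levels were not tested between cell types.

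Small nucleolar RNAs (snoRNAs) guide chemical changes on ribosomal RNA. Box C/D snoRNAs direct methylation of the ribose, box H/ACA snoRNAs direct the conversion of uridine to pseudouridine, and scaRNAs are relatives that act in Cajal bodies. Most human snoRNAs lie in introns of longer host genes and are trimmed out of the intron once the host transcript has been spliced. Many SNHG hosts encode no long protein. Their spliced transcripts often carry stop codons before the last exon junction, which exposes them to nonsense-mediated decay (NMD), and several begin with a run of pyrimidines like the mRNAs of ribosomal proteins. TMEM107 is an exception in that it encodes a membrane protein of the ciliary transition zone.

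The counts were read pairs on exons, and 22829189 to 31895061 pairs per library had been assigned to genes. Levels are given as normalized counts in CPM, on library sizes scaled by TMM over the 12 libraries, and a count of 3 stood at 0.0941 to 0.131 CPM before that scaling. All log2 fold changes are of TNF-α over vehicle in the same cell type. A gene was called when its adjusted p was under 0.05 in edgeR's quasi-likelihood test. As a check of the labels, the TNF-α responsive genes *TNF*, *NFKBIA* and *TNFAIP3* had log2 fold changes of 1.91, 3.91 and 3.63 in promyelocytes and 2.503, 5.51 and 5.08 in granulocytes. *CD38* and *ITGAM*, markers of granulocytic differentiation, stood at 1165 ± 47.1 and 298 ± 8.87 CPM in vehicle-treated granulocytes against 8.51 ± 1.46 and 6.41 ± 0.474 CPM in vehicle-treated promyelocytes (SD, n = 3). Of the markers of other cells, *MS4A1*, *HBB* and *COL1A2* had no counts and *CD14*, *CD163* and *MRC1* stood at or below 0.309 CPM in every group. *COL1A1* rose with TNF-α in promyelocytes, from 1, 0 and 3 counts to 15, 11 and 24 counts. Of 5 promyelocyte granule genes 3 were lower with TNF-α in promyelocytes, among them *MPO* (log2 fold change -0.23), and of 8 granulocyte and ATRA genes 1 was higher and 2 were lower. In granulocytes 4 of those 8 were higher and 4 lower, from -1.22 to 1.09 on the log2 scale, and 0 of the 4 granule genes tested were called by edgeR or DESeq2, with 1 higher at an unadjusted p under 0.05. The part of these genes in the results below was not tested.

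Of the 33 members, 29 passed the filter on low counts in each cell type. *SNHG18*, *SNHG22* and *SNHG27* had 0 counts in all 12 libraries, and *SNHG28* held 25 counts in all and was not tested. The 33 members contained 140 rows for snoRNAs or scaRNAs on the same strand, 84 of them in *SNHG14*, and 94 of these rows had no counts.

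The sequences of 4 encoded snoRNAs are shown because their rows, or those of their hosts, carry much of what follows. They were read from hg38, are written 5′ to 3′ as DNA, and capitals mark letters that match box C, box D, box H or the ACA box. These matches are of letters only. *SNORA74D* is an H/ACA snoRNA in an intron of *SNHG4*, *SNORA73B* is an H/ACA snoRNA in *SNHG3*, and *SNORD12B* and *SNORD12C* are C/D snoRNAs in *ZFAS1*.
SNORA74D (chr5:139276180-139276320, plus strand): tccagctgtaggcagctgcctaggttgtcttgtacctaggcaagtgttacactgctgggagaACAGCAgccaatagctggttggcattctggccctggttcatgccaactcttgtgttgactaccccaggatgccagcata
SNORA73B (chr1:28508559-28508762, plus strand): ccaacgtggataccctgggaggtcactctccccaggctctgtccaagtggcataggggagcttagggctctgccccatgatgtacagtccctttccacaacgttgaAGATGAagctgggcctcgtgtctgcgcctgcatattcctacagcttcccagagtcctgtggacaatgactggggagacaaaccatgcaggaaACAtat
SNORD12B (chr20:49280319-49280409, plus strand): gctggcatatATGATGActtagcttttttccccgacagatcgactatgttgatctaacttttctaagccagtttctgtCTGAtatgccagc
SNORD12C (chr20:49278940-49279028, plus strand): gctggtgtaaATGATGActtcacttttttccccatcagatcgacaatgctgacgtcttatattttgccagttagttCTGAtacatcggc

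In promyelocytes TNF-α raised 6 of the 29 members tested and lowered 0 by edgeR's test. *SNHG1*, *SNHG12*, *ZFAS1*, *SNHG3*, *GAS5* and *SNHG26* rose, by 0.24 to 0.53 on the log2 scale. DESeq2 also called 0 members lower, and 0 were lower at an unadjusted p under 0.05 in edgeR. Of all 16250 genes tested 8.15% were called higher and 6.65% lower. The median log2 fold change was 0.06 over the members and -0.0094 over all genes. The 23 members that were not called had log2 fold changes between -0.19 and 0.18, and 12 of them were above 0. In bulk RNA a lower level from fewer cells of a kind cannot be told apart from less RNA in each cell.

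More members were called in granulocytes than in promyelocytes, as were more of all genes. There TNF-α raised 14 of the 29 and lowered 1, against 24.4% called higher and 24.8% called lower among all 16944 genes tested. The median log2 fold change of the members was 0.15, and that of all genes was -0.0047. The 14 that rose were *SNHG4*, *SNHG12*, *SNHG3*, *SNHG1*, *SNHG6*, *SNHG17*, *SNHG26*, *SNHG15*, *SNHG5*, *SNHG10*, *SNHG9*, *SNHG16*, *SNHG19* and *SNHG20*, and the gene that fell was *SNHG14*. Between cell types 4 members rose in both, 2 were called only in promyelocytes and 10 of those raised in granulocytes were not called in promyelocytes. Being called in one cell type and not in the other does not show a difference, which was tested as the interaction of treatment and cell type. Since each cell type had its own experiment, the interaction test cannot tell cell type from experiment. That test called 9 of 29 members: 7 responses were more positive in granulocytes (14.1% of 18124 genes tested) and 2 more negative (9.88%). The median difference of the responses was 0.08 over the members and 0.03 over all genes tested.

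**Figure D1:**
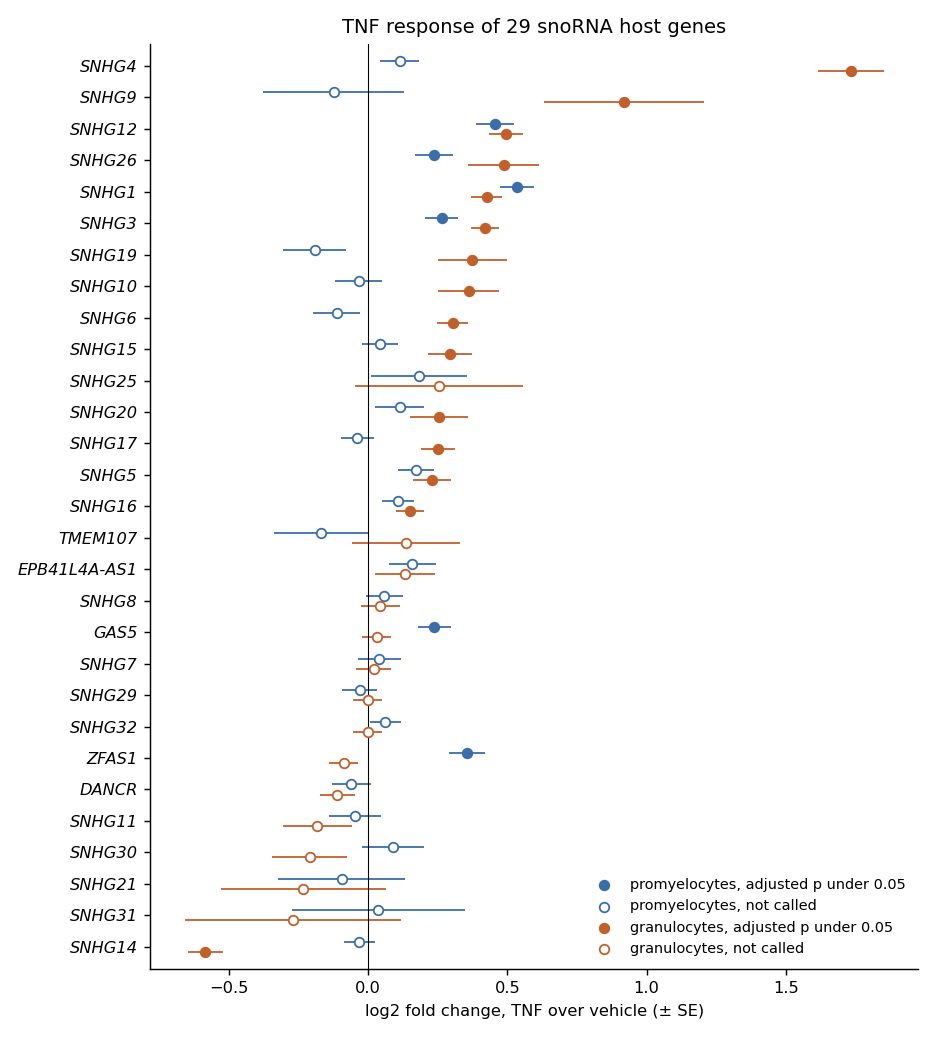
Log2 fold change with TNF-α over vehicle (x axis, bars are standard errors) for the 29 members tested (y axis, ordered by the granulocyte value), in promyelocytes (blue) and granulocytes (orange), with filled points for an edgeR adjusted p under 0.05. Among the filled points, only that of *SNHG14* lies below 0, and *SNHG4* stands apart in granulocytes at 1.73.

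*SNHG1*, *SNHG12*, *SNHG3* and *SNHG26* rose in both cell types. *SNHG1* (chr11:62851988-62855914) hosts C/D snoRNAs of the SNORD22 to SNORD30 series. Its normalized counts in promyelocytes were 204, 204 and 213 CPM with vehicle and 280.2, 319 and 285 CPM with TNF-α. All TNF-α libraries lay above all vehicle libraries, with a log2 fold change of 0.53 (SE 0.061, edgeR adjusted p = 2.22e-06). In granulocytes the counts were lower in both groups and again did not overlap, at 70.1, 66.6 and 60.6 CPM with vehicle and 85.01, 91.8 and 90.4 CPM with TNF-α. The log2 fold change there was 0.43 (SE 0.056, edgeR adjusted p = 4.75e-08). The responses differed by -0.07 (SE 0.085), which did not pass the test (edgeR interaction adjusted p = 0.599).

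*SNHG12* (chr1:28578538-28582983) hosts H/ACA snoRNAs and the C/D snoRNA SNORD99. It rose from 101, 94.8 and 98.6 CPM to 118, 146 and 132 CPM in promyelocytes, a log2 fold change of 0.45 (SE 0.069, edgeR adjusted p = 7.31e-05). It rose in granulocytes too, from 36.8, 35.8 and 34.3 CPM to 47.5, 51.4 and 53.3 CPM, a log2 fold change of 0.50 (SE 0.06, edgeR adjusted p = 9.98e-09). *SNHG12* therefore had non-overlapping groups in both cell types, and its responses differed by 0.08 (SE 0.095) (edgeR interaction adjusted p = 0.606). *SNHG3* (chr1:28505980-28510892) lies before *SNHG12* on chromosome 1, on the other strand, and hosts SNORA73A and SNORA73B, which act on early ribosomal RNA processing. It stood at 252, 247 and 246 CPM with vehicle and 269.7, 303 and 306 CPM with TNF-α in promyelocytes, a log2 fold change of 0.26 (SE 0.059, edgeR adjusted p = 0.00405). In granulocytes *SNHG3* went from 91.2, 97.9 and 92.8 CPM to 121, 131 and 129 CPM, a log2 fold change of 0.42 (SE 0.051, edgeR adjusted p = 1.02e-08). The groups did not overlap in either cell type. The responses of *SNHG3* differed by 0.19 (SE 0.078) (edgeR interaction adjusted p = 0.0732), and this was called with GC content and length trends removed (0.19) or without promyelocyte TNF-α replicate 3 (0.23). *SNHG3* shares 242 exon bases with *RCC1*, which encodes the exchange factor for Ran and had log2 fold changes of 0.05 and -0.05, neither of them called.

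*SNHG26* hosts the C/D snoRNA SNORD93. Its counts were 31.9, 35.1 and 35.2 CPM against 38.9, 40.0 and 39.5 CPM in promyelocytes, a log2 fold change of 0.24 (SE 0.069, edgeR adjusted p = 0.0243). The promyelocyte call was lost under 4 of 8 other settings, including removal of GC content and length trends (log2 fold change 0.18), and without vehicle replicate 1, vehicle replicate 2 or TNF-α replicate 2. In granulocytes *SNHG26* rose from 7.24, 5.66 and 5.57 CPM to 8.77, 7.27 and 10.1 CPM, a log2 fold change of 0.49 (SE 0.13, edgeR adjusted p = 0.00178), and that call held under all 8 settings. The difference of its responses was 0.29 (SE 0.14) (edgeR interaction adjusted p = 0.156), and was called with GC content and length trends removed (0.39) or without granulocyte TNF-α replicate 2 (0.41).

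**Figure D2:**
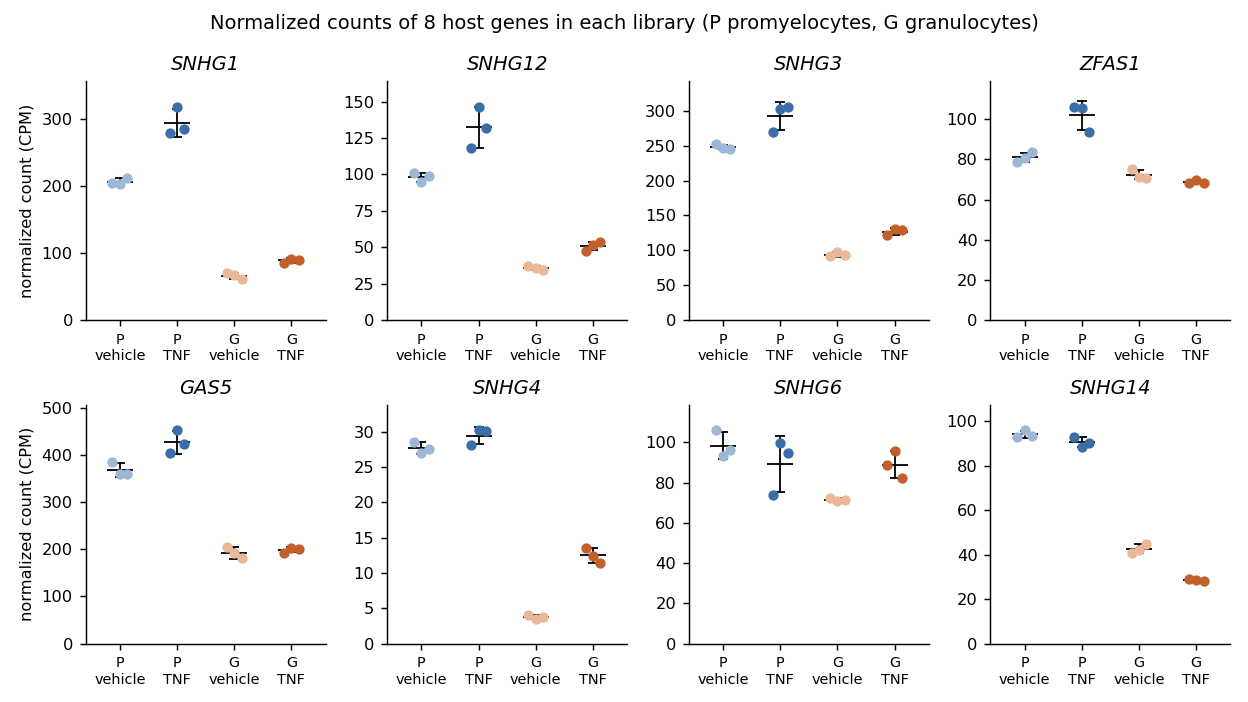
Normalized counts in CPM (y axes, from 0) of 8 members in each of the 12 libraries, with 3 points per group and the mean ± SD as black bars. The TNF-α and vehicle points of *SNHG1*, *SNHG12* and *SNHG3* separate in both cell types, those of *GAS5* in promyelocytes, and those of *SNHG4*, *SNHG6* and *SNHG14* in granulocytes, while *ZFAS1* is higher with TNF-α in promyelocytes and slightly lower in granulocytes.

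*ZFAS1* and *GAS5* were called in promyelocytes and not in granulocytes. *ZFAS1* (chr20:49278178-49295738) hosts the SNORD12 family and carries a short run of pyrimidines at its start. It rose from 78.8, 80.6 and 83.6 CPM to 106, 106 and 93.5 CPM in promyelocytes, a log2 fold change of 0.35 (SE 0.065, edgeR adjusted p = 0.000566). In granulocytes *ZFAS1* was at 75.3, 71.3 and 70.8 CPM with vehicle and 68.3, 69.6 and 68.4 CPM with TNF-α. There the TNF-α libraries lay below the vehicle libraries by a small margin and the log2 fold change was -0.09 (SE 0.052, edgeR adjusted p = 0.161), which was not called. The difference of the responses passed the test at -0.41 (SE 0.081, edgeR adjusted p = 0.000423) in the interaction, and did so under all 5 other settings and with any library left out.

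*GAS5* (chr1:173863900-173868882) was named for its accumulation in growth-arrested cells and is known as a host of many C/D snoRNAs, but no snoRNA row of the table lay inside it. Its counts were 384, 360.0 and 358 CPM with vehicle and 403, 452 and 424 CPM with TNF-α in promyelocytes, and the groups did not overlap. The log2 fold change was 0.24 (SE 0.059, edgeR adjusted p = 0.00791). Without vehicle replicate 2 the call was lost, at a log2 fold change of 0.22. In granulocytes the counts overlapped, at 205, 193 and 180.5 CPM and 193, 203 and 201 CPM, with a log2 fold change of 0.03 (SE 0.051, edgeR adjusted p = 0.657). With GC content and length trends removed *GAS5* was called higher in granulocytes, at 0.11 (edgeR adjusted p = 0.0262). The difference of the *GAS5* responses was -0.17 (SE 0.08) and missed the threshold (edgeR interaction adjusted p = 0.13), although DESeq2 (-0.23), DESeq2's size factors (-0.22) and the table without a filter (-0.25) placed it under 0.05.

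*SNHG4* had the highest log2 fold change of the members. In granulocytes it stood at 4.00, 3.48 and 3.72 CPM with vehicle and 13.6, 12.5 and 11.5 CPM with TNF-α, from 104, 105 and 111 counts to 301, 348 and 254 counts. The log2 fold change was 1.73 (SE 0.12, edgeR adjusted p = 3.2e-15). In promyelocytes *SNHG4* was at 28.5, 26.9 and 27.6 CPM with vehicle and 28.1, 30.2 and 30.04 CPM with TNF-α, a log2 fold change of 0.11 (SE 0.07, edgeR adjusted p = 0.333), so the promyelocyte groups overlapped at a level above that of TNF-α treated granulocytes. The responses differed by 1.66 (SE 0.12, edgeR adjusted p = 1.04e-10) in the interaction, and every setting and every left-out library kept this call.

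*SNHG4* (chr5:139274102-139283244) has 8 exon blocks and 1926 exon bases in the table, of which 555 also belong to the longer of 2 rows named *MATR3*, a gene for a nuclear RNA-binding protein. Read pairs on shared bases are counted for neither gene, so 1371 bases remained for *SNHG4* alone. The longer *MATR3* row begins 350 bases before *SNHG4* and extends far past it. It rose too in granulocytes, from 27, 36 and 29 counts to 97, 146 and 103 counts, with a log2 fold change of 2.14 (SE 0.20, edgeR adjusted p = 2.14e-11). In promyelocytes its log2 fold change was 0.04. Only 659 of the 6355 exon bases of this row belong to no other gene, and 12 of those lie within *SNHG4*. The other *MATR3* row, which shares no exon base with *SNHG4*, was at 22.7 ± 0.367 CPM with vehicle and 25.1 ± 2.16 CPM with TNF-α in granulocytes (SD, n = 3). Its log2 fold change of 0.13 (SE 0.073, edgeR adjusted p = 0.133) was not called.

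**Figure D3:**
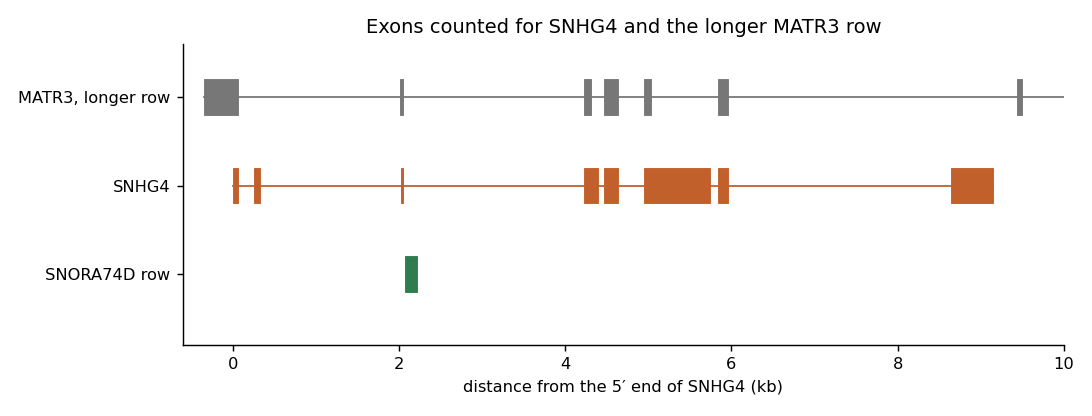
Exons counted for *SNHG4* (orange) and for the longer *MATR3* row (grey), with the row of *SNORA74D* in an intron of *SNHG4* (green), along the distance from the 5′ end of *SNHG4* in kb (x axis, to scale). The first grey exon begins 350 bases before *SNHG4*, 555 exon bases are common to both rows, and the grey row continues beyond the right edge.

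*SNORA74D*, whose sequence is given above, had few read pairs in granulocytes. It held 24, 32 and 34 counts with vehicle and 42, 63 and 51 counts with TNF-α, a log2 fold change of 1.03 (SE 0.25, edgeR adjusted p = 0.000781). The row was higher in all TNF-α libraries of granulocytes than in the vehicle libraries. In promyelocytes *SNORA74D* was not called, at -0.10.

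*SNHG14* was the only member called lower, and only in granulocytes was it called. It is the long transcript of the imprinted Prader-Willi region (chr15:24978583-25419462), with 137 exon blocks, and hosts the repeated SNORD116 and SNORD115 genes. In granulocytes it fell from 40.8, 42.3 and 44.9 CPM to 29.3, 28.7 and 28.2 CPM, a log2 fold change of -0.59 (SE 0.062, edgeR adjusted p = 4.36e-10). In promyelocytes it stood at 93.1, 96.0 and 93.4 CPM with vehicle and 93.1, 88.5 and 90.2 CPM with TNF-α, a log2 fold change of -0.03 (SE 0.057, edgeR adjusted p = 0.767). The groups overlapped in promyelocytes and were apart in granulocytes, and the responses differed by -0.52 (SE 0.079, edgeR adjusted p = 1.64e-05) in the interaction, a call that held under all 5 other settings. *SNRPN*, which lies at the start of the same transcription unit, encodes a spliceosomal protein and shares 141 exon bases with *SNHG14*, also fell in granulocytes, from 147, 139 and 135 counts to 50, 83 and 59 counts (log2 fold change -0.90 (SE 0.17, edgeR adjusted p = 2.13e-05)). Its log2 fold change in promyelocytes was -0.14 and was not called.

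The other members raised in granulocytes moved by 0.15 to 0.92 on the log2 scale. *SNHG6*, the host of SNORD87 on chromosome 8, went from 72.4, 70.8 and 71.5 CPM to 89.0, 95.8 and 82.3 CPM, a log2 fold change of 0.30 (SE 0.055, edgeR adjusted p = 1.5e-05). Its promyelocyte counts overlapped, at 106, 93.0 and 96.4 CPM and 73.7, 99.8 and 94.8 CPM, and the difference of responses was 0.46 (SE 0.11, edgeR adjusted p = 0.00347) in the interaction. *SNHG17*, the host of the SNORA71 family, went from 32.0, 30.6 and 31.9 CPM to 37.2, 37.5 and 38.7 CPM, a log2 fold change of 0.25 (SE 0.061, edgeR adjusted p = 0.000848). In promyelocytes *SNHG17* was at 118, 111 and 105 CPM and 103, 105 and 112 CPM. The difference of its responses was 0.33 (SE 0.083, edgeR adjusted p = 0.00406) in the interaction. Both genes had TNF-α libraries above all vehicle libraries in granulocytes alone, and the interaction call of *SNHG17* was lost only without the filter on low counts (log2 difference 0.24).

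*SNHG15*, the host of SNORA9, rose in granulocytes from 17.6, 16.1 and 16.0 CPM to 18.9, 20.9 and 21.6 CPM (log2 fold change 0.29 (SE 0.079, edgeR adjusted p = 0.00217)). *SNHG5*, the host of SNORD50B, rose there from 28.9, 24.96 and 29.4 CPM to 32.0, 33.5 and 32.9 CPM (log2 fold change 0.23 (SE 0.068, edgeR adjusted p = 0.00522)). *SNHG5* was near the threshold in promyelocytes, at 92.3, 83.1 and 88.5 CPM and 89.9, 105 and 97.5 CPM (log2 fold change 0.17 (SE 0.065, edgeR adjusted p = 0.0884)), and passed it with length trends removed (0.19) or without TNF-α replicate 1 (0.23). *SNHG10*, the host of SCARNA13, rose in granulocytes from 8.74, 7.32 and 10.2 CPM to 11.8, 10.6 and 11.7 CPM (log2 fold change 0.36 (SE 0.11, edgeR adjusted p = 0.00615)). Without granulocyte vehicle replicate 2 the granulocyte calls of *SNHG5* (0.16) and *SNHG10* (0.25) were lost. The promyelocyte counts were 69.0, 67.2 and 69.7 against 64.5, 75.8 and 68.3 CPM for *SNHG15* and 22.5, 22.2 and 21.9 against 19.3, 23.6 and 21.0 CPM for *SNHG10*, with overlap in both. Their interaction calls, 0.29 and 0.43, were lost under 5 and 2 of 5 other settings.

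The remaining granulocyte calls were those of *SNHG9*, *SNHG19*, *SNHG16* and *SNHG20*. *SNHG9*, the host of SNORA78, has a single exon block of 551 bases and was counted at 28, 30 and 24 pairs with vehicle and 28, 70 and 36 with TNF-α, a log2 fold change of 0.92 (SE 0.29, edgeR adjusted p = 0.00756). It was lost with GC content and length trends removed (0.67) or without granulocyte TNF-α replicate 2 (0.59), and its interaction value of 1.08 was lost under all 5 other settings. *SNHG19*, the host of SNORD60 and the member with the second-fewest exon bases, rose from 6.43, 5.59 and 5.33 CPM to 7.55, 8.28 and 6.74 CPM in granulocytes, a log2 fold change of 0.37 (SE 0.12, edgeR adjusted p = 0.0117). In promyelocytes its counts overlapped, at 29.1, 24.2 and 23.4 CPM and 17.01, 23.5 and 25.4 CPM. The granulocyte call was lost under 4 of 8 settings, with a lowest log2 fold change of 0.15, and without granulocyte vehicle replicate 3 or TNF-α replicate 2. *SNHG16*, the host of the SNORD1 family, had a log2 fold change of 0.15 (SE 0.049, edgeR adjusted p = 0.0103) that held under the 8 other settings at the same threshold and with each library left out. *SNHG20*, the host of SCARNA16, had 0.25 (SE 0.10, edgeR adjusted p = 0.0416) and was lost under 3 of 8 settings and without vehicle replicate 1, vehicle replicate 2, TNF-α replicate 2 or TNF-α replicate 3. It shares 572 exon bases with *SEC14L1*, which was at 0.02.

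Of the 12 members called in neither cell type, *SNHG8* and *SNHG29* were among the 3 members with the highest level per length in promyelocytes. In vehicle-treated granulocytes the order was *SNHG29*, *SNHG6*, *SNHG32*, *GAS5* and *SNHG8*. *SNHG8*, the host of SNORA24, stood at 129.6 ± 7.35 CPM per kb of exons in vehicle-treated promyelocytes and 133 ± 12.2 with TNF-α, and at 49.8 ± 6.77 and 51.7 ± 2.83 in granulocytes (SD, n = 3). Its normalized counts were 128, 116 and 116 CPM and 114, 135 and 119 CPM in promyelocytes and 52.8, 40.5 and 44.7 CPM and 44.8, 49.7 and 48.7 CPM in granulocytes. *SNHG29*, the host of SNORD49A, SNORD49B and SNORD65, stood at 96.2 ± 7.09 and 92.6 ± 5.53 CPM per kb in promyelocytes and 125 ± 9.94 and 126 ± 3.13 in granulocytes. Its normalized counts were 390.5, 338 and 357 CPM and 335, 372 and 338 CPM in promyelocytes and 512, 441 and 458 CPM and 464, 487 and 472 CPM in granulocytes, overlapping in both. The log2 fold changes of *SNHG29* were -0.03 (SE 0.063) and -0.0014 (SE 0.052). *GAS5*, which with *SNHG8* and *SNHG29* had the highest levels per length in promyelocytes, stood at 101 ± 4.02 and 117 ± 6.70 CPM per kb in promyelocytes and 53.1 ± 3.44 and 54.8 ± 1.496 in granulocytes. *SNHG32*, *SNHG7* and *DANCR*, all well measured, had granulocyte log2 fold changes of -0.0027 (SE 0.051), 0.02 (SE 0.063) and -0.11 (SE 0.064). Without granulocyte TNF-α replicate 1 *DANCR* was called lower there, at -0.16 (edgeR adjusted p = 0.0491). The members not called and with standard errors above 0.19 in granulocytes, *SNHG21*, *SNHG25*, *SNHG31* and *TMEM107*, stood at or below 5.003 CPM in every library, so that changes of the sizes seen in them were not detectable at this depth. *SNHG11*, *SNHG30* and *EPB41L4A-AS1* had granulocyte values of -0.18 (SE 0.12), -0.21 (SE 0.13) and 0.13 (SE 0.11). Without granulocyte vehicle replicate 3 *SNHG30* was called lower, at -0.34 (edgeR adjusted p = 0.0425).

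Levels were set side by side between cell types without a test. Per kb of exons, the tested members spanned from 0.382 ± 0.0287 (*SNHG31*) to 129.6 ± 7.35 CPM (*SNHG8*) in vehicle-treated promyelocytes. In vehicle-treated granulocytes *SNHG29* was at the top. Of the 29 members 28 had a lower mean in vehicle-treated granulocytes than in vehicle-treated promyelocytes, *SNHG29* being the exception, while 51.7% of all genes tested in both cell types did. Summed over the members, the normalized count was 2838 to 3032 CPM in vehicle-treated and 3034 to 3316 CPM in TNF-α treated promyelocytes. In granulocytes it was 1500.0 to 1616 CPM with vehicle and 1645 to 1711 CPM with TNF-α.

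**Figure D4:**
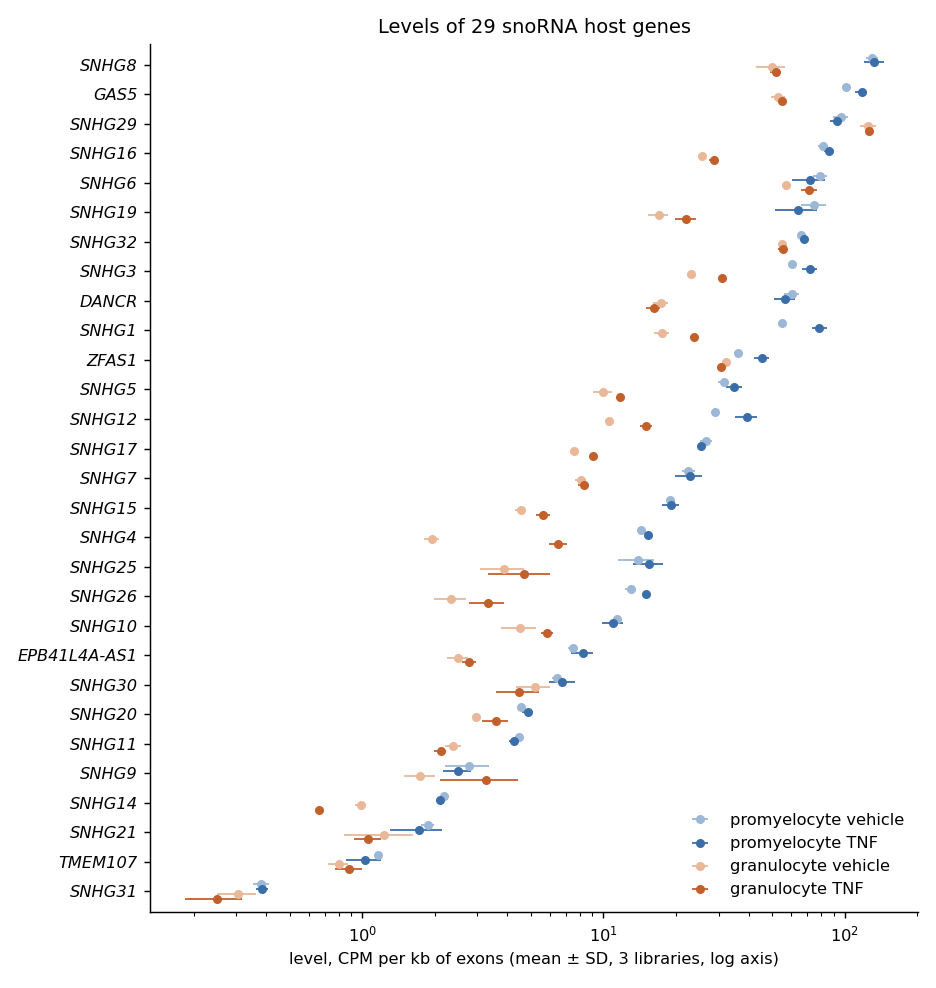
Level of the 29 members tested in CPM per kb of exons (x axis, log scale, mean ± SD of 3 libraries), ordered by vehicle-treated promyelocytes, for the 4 groups. The granulocyte points lie to the left of the promyelocyte points for most genes, *SNHG29* lies to the right, and the vehicle-treated granulocyte point of *SNHG4* stands at 1.94 against 6.50 with TNF-α.

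The rows of the encoded small RNAs were counted apart from their hosts. These libraries were made from long RNA after depletion of ribosomal RNA, so a read pair on such a row can come from unspliced host RNA as well as from the mature small RNA, and the counts do not tell these apart. Pairs on a row that overlaps host exons on the same strand are dropped. In promyelocytes 24 of the 140 rows were tested, and 3 were called higher and 0 lower (8.15% and 6.65% of all genes). In granulocytes 19 were tested, and 6 were called higher and 0 lower (24.4% and 24.8% of all genes). At an unadjusted p under 0.05 in edgeR 2 rows were lower in promyelocytes and 0 in granulocytes, and DESeq2 called 0 and 1 lower. DESeq2 called 1 row higher in promyelocytes and 5 in granulocytes. The median log2 fold change over the rows tested was -0.08 in promyelocytes and 0.36 in granulocytes.

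The rows with the highest mean counts were *SNORA73B*, *SCARNA13*, *SNORD12B* and *SNORA74D*. *SNORA73B* held 1824, 1257 and 1344 counts with vehicle and 1240, 1691 and 1683 with TNF-α in promyelocytes, a log2 fold change of 0.10 (SE 0.092, edgeR adjusted p = 0.547). The same row rose in granulocytes, from 457, 496 and 523 to 640, 811 and 567 counts, a log2 fold change of 0.69 (SE 0.074, edgeR adjusted p = 5.83e-10). Its host *SNHG3* rose in both cell types. *SCARNA13*, which lies in *SNHG10*, held 482, 444 and 377 counts with vehicle and 623, 792 and 543 with TNF-α in granulocytes (log2 fold change 0.82 (SE 0.092, edgeR adjusted p = 1.53e-09)). In promyelocytes it varied from 260 to 740 counts between libraries and was not called (-0.09). *SNORD12B* rose in promyelocytes from 221, 231 and 227 to 315, 282 and 334 counts (log2 fold change 0.49 (SE 0.11, edgeR adjusted p = 0.00515)), as did its host *ZFAS1*. In granulocytes *SNORD12B* was at 0.36 (SE 0.16, edgeR adjusted p = 0.0624), not called.

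The other called rows, of which 1 is not reported here, were named after their values were seen. In promyelocytes *SNORD99* in *SNHG12* and *SNORA60* in *SNHG11* had log2 fold changes of 0.54 (SE 0.17, edgeR adjusted p = 0.0376) and 1.17 (SE 0.35, edgeR adjusted p = 0.0284). In granulocytes *SNORD104* in *SNHG25* and *SNORD12C* in *ZFAS1* had 0.76 (SE 0.24, edgeR adjusted p = 0.00817) and 0.59 (SE 0.24, edgeR adjusted p = 0.0424). The host was called higher for 2 of the 3 called rows in promyelocytes and for 4 of the 6 in granulocytes. Of all members tested, 20.7% and 48.3% were called higher in these cell types. The called rows without a called host were *SNORA60*, whose host *SNHG11* was at -0.05, *SNORD104*, whose host *SNHG25* was at 0.25 without a call, and *SNORD12C*, whose host *ZFAS1* was at -0.09. Whether called rows go with called hosts more often than other rows was not tested.

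**Figure D5:**
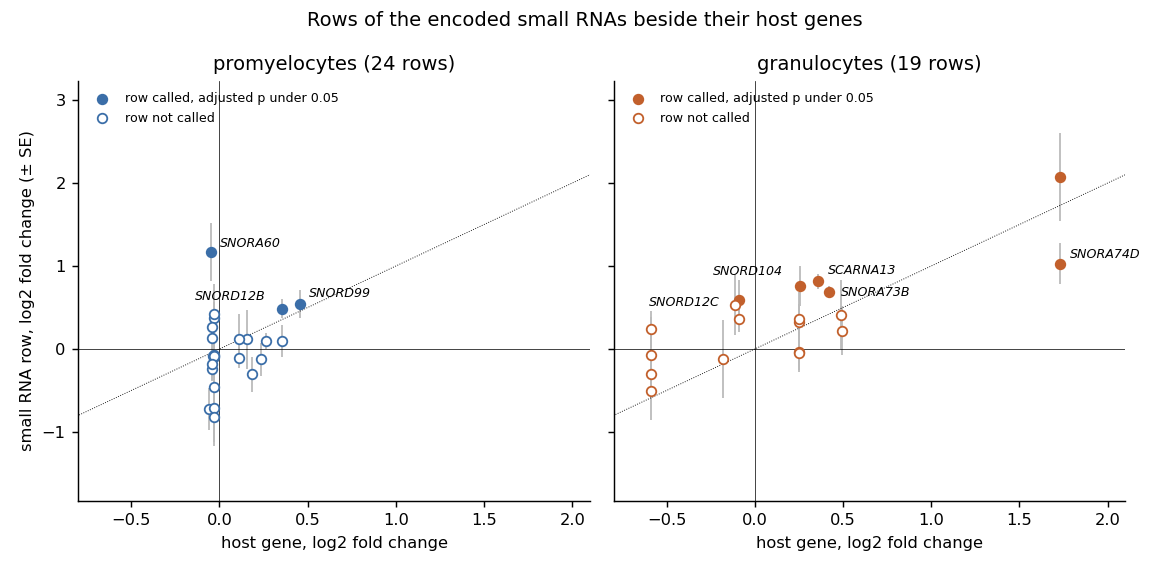
Log2 fold change of each tested small RNA row (y axis, bars are standard errors) against that of its host (x axis) in promyelocytes (left, 24 rows) and granulocytes (right, 19 rows), with called rows filled (all but 1 of them named) and the dotted line marking equal values. In granulocytes the 2 rows of *SNHG4* lie at the far right, and *SNORD12C* is called although its host *ZFAS1* is not.

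The promoters of members were compared by letters only. RefSeq promoters (GRCh38.p14, 250 bases before to 50 after the start) were at hand for 29 of the 33 members, and their start is not always that of the counted gene. A run of at least 5 C or T that begins with C within 5 bases of the start was present in 13 of 29 (44.8%) and in 21.1% of 35116 promoters. Such a start resembles the 5′ terminal oligopyrimidine tract of mRNAs for the translation machinery. *SNHG4*, *SNHG12*, *ZFAS1*, *SNHG5*, *SNHG16*, *SNHG17* and *SNHG19* hold it among the members called, while *SNHG1*, *SNHG3*, *SNHG14*, *GAS5*, *SNHG10*, *SNHG20* and *SNHG26* do not, so the 14 called members with a promoter split 7 to 7. The other 6 holders, *DANCR*, *SNHG7*, *SNHG8*, *SNHG18*, *SNHG31* and *SNHG32*, were not called or not tested. The E-box CACGTG, read on both strands, was in 2 of 29 (6.90%, against 7.26% of all promoters) and the ETS core CCGGAA in 5 of 29 (17.2%, against 17.3%). The NF-kB motif was in 2 of 29 (6.90%, against 5.91%), those of *SNHG4* and *SNHG29*. Of these *SNHG4* was called in granulocytes and *SNHG29* in neither cell type. The promoters of *SNHG4*, *SNHG12* and *SNHG1* follow because they are 3 of the 5 members with the smallest adjusted p, and the first 2 hold the run while *SNHG1* does not. Capitals mark the pyrimidine run and, in *SNHG4*, the NF-kB motif as well, which begins 24 bases before the start.
SNHG4 (chr5:139273851-139274150, plus strand): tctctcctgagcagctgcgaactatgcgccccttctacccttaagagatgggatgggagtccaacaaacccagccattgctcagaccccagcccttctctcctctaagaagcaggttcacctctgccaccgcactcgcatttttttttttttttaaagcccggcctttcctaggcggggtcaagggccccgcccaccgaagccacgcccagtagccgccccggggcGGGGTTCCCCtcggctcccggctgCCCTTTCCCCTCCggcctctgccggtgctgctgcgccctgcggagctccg
SNHG12 (chr1:28581824-28582123, minus strand): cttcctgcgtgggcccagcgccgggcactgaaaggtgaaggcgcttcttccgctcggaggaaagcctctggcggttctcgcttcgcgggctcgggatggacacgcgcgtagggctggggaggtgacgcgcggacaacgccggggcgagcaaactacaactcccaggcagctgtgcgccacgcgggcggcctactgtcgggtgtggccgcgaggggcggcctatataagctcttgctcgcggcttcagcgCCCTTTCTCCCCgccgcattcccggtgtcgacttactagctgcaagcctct
SNHG1 (chr11:62855836-62856135, minus strand): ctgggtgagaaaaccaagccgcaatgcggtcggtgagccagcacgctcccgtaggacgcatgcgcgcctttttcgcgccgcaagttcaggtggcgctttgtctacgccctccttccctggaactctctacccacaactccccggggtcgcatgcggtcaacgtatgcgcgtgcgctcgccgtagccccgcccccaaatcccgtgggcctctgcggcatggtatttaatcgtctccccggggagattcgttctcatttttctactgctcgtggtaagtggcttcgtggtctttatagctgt

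Several members share a short start region with a gene on the other strand. Of 11 genes whose 5′ ends lay within 1000 bases of a member's, 6 were tested in promyelocytes, where 0 were called by edgeR, 0 by DESeq2 and 0 at an unadjusted p under 0.05, with log2 fold changes from -0.12 to 0.11. Among all genes in promyelocytes 8.15% were called higher and 6.65% lower. In granulocytes 7 neighbours were tested, and 2 were called higher and 3 lower (28.6% and 42.9%, against 24.4% and 24.8% of all genes). *SLC3A2*, which encodes the heavy chain of an amino acid transporter and starts 188 bases from *SNHG1*, stood at 135, 133 and 128 CPM with vehicle and 123, 128 and 135 CPM with TNF-α in promyelocytes, where *SNHG1* rose and *SLC3A2* was not called (-0.02 (SE 0.057, edgeR adjusted p = 0.881)). In granulocytes *SLC3A2* rose from 82.7, 85.1 and 84.7 CPM to 116, 118 and 115 CPM, a log2 fold change of 0.46 (SE 0.05, edgeR adjusted p = 7.38e-10). *ZNFX1*, an RNA helicase gene whose 5′ end lies 248 bases from that of *ZFAS1*, was at 84.2, 83.1 and 79.7 CPM and 90.9, 84.8 and 86.7 CPM in promyelocytes (0.11 (SE 0.058, edgeR adjusted p = 0.236)). In granulocytes *ZNFX1* rose from 115, 118 and 120.0 CPM to 204, 181 and 169 CPM (0.64 (SE 0.054, edgeR adjusted p = 1.38e-12)), where *ZFAS1* was not called. *ZBTB37*, a zinc finger gene 800 bases from *GAS5*, fell in granulocytes from 164, 160.0 and 157 CPM to 112, 117 and 121 CPM (-0.47 (SE 0.049, edgeR adjusted p = 2.26e-10)), where *GAS5* overlapped between groups. *TRAF7*, 340 bases from *SNHG19*, had -0.13 (SE 0.053, edgeR adjusted p = 0.0335) in granulocytes, opposite in sign to *SNHG19*, and *RPS2*, 99 bases from *SNHG9*, had 0.09 (SE 0.062, edgeR adjusted p = 0.245). For *SLC3A2*, *ZNFX1* and *ZBTB37* the responses of the cell types differed, by 0.51, 0.56 and -0.34 in the interaction.

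Other host genes hold snoRNA rows in the same way but are no members. Of 32 such hosts whose symbols begin like those of ribosomal protein genes, *RPL10P19*, *RPL32P3* and *RPSAP71* are pseudogenes and *RPL17-C18orf32* is a readthrough gene, and 29 of the 32 were tested. In promyelocytes 0 were called by edgeR and 0 by DESeq2, with 1 at an unadjusted p under 0.05 in edgeR. In granulocytes 4 rose and 0 fell (13.8% higher, against 24.4% of all genes), with 0 called lower by DESeq2 and 0 lower at an unadjusted p under 0.05. The medians were -0.03 and 0.06. The 4 were *RPL37* (0.36 (SE 0.053, edgeR adjusted p = 5.78e-07)), *RPS3* (0.17 (SE 0.051, edgeR adjusted p = 0.00702)), *RPLP2* (0.16 (SE 0.051, edgeR adjusted p = 0.00891)) and *RPL39* (0.20 (SE 0.075, edgeR adjusted p = 0.026)). Of the 178 other hosts 138 were tested in promyelocytes, where 20 rose and 7 fell, and 137 in granulocytes, where 36 rose and 26 fell. These are 14.5% and 5.07% in promyelocytes (8.15% and 6.65% of all genes) and 26.3% and 19% in granulocytes (24.4% and 24.8%). This list is not separate from the members. It holds the longer *MATR3* row, *RCC1* and *SEC14L1*, which share exon bases with *SNHG4*, *SNHG3* and *SNHG20*. Examples are *DENND4A*, a gene for a Rab exchange factor (log2 fold change 0.56 in promyelocytes and 0.91 in granulocytes), *PRPF39*, a splicing factor gene (0.37 and 0.68), *CHD4*, a chromatin remodeller gene (0.23 and 0.61), and *RNF149*, a ubiquitin ligase gene (-0.47 and -0.71). *EIF4A2*, a translation initiation factor gene, rose in promyelocytes (0.37 (SE 0.057, edgeR adjusted p = 0.000113)) and fell in granulocytes (-0.17 (SE 0.051, edgeR adjusted p = 0.00511)).

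The proteins that bind snoRNAs were counted in both directions. Of 20 genes for snoRNP proteins and their assembly factors 2 rose and 1 fell in promyelocytes (10% and 5%, against 8.15% and 6.65% of all genes). In granulocytes 5 rose and 3 fell (25% and 15%, against 24.4% and 24.8% of all genes), and DESeq2 called 2 higher and 3 lower there. The median log2 fold changes were 0.0049 and 0.0029. *NOP56*, *NOP58* and *DKC1* belong both to these genes and to the other hosts above. *GAR1*, a core protein of H/ACA particles, fell in promyelocytes (-0.23 (SE 0.069, edgeR adjusted p = 0.0255)) and rose in granulocytes (0.23 (SE 0.082, edgeR adjusted p = 0.0163)). *NAF1*, an H/ACA assembly factor, rose in both (0.26 and 0.20), and *PHAX*, the export adaptor for small RNAs, rose in promyelocytes (0.28 (SE 0.087, edgeR adjusted p = 0.0325)). In granulocytes *SHQ1* and *RPAP3*, both assembly factors, fell by 0.52 and 0.33 on the log2 scale, *SNU13*, a core protein of C/D particles, fell by 0.25 and *NOP10*, a core protein of H/ACA particles, rose by 0.25.

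Many transcripts of these hosts are substrates of NMD, and the factors of that pathway were also counted. Of 15 NMD and exon junction genes 4 rose and 0 fell in promyelocytes by edgeR's test (26.7% and 0%, against 8.15% and 6.65% of all genes). In granulocytes 9 rose and 2 fell (60% and 13.3%, against 24.4% and 24.8% of all genes). DESeq2 called 0 lower in promyelocytes, and 1 was lower at an unadjusted p under 0.05. *UPF3B*, which links the exon junction complex to decay, rose from 36.6, 32.5 and 37.4 CPM to 49.5, 51.6 and 47.4 CPM in promyelocytes (0.50 (SE 0.069, edgeR adjusted p = 2.3e-05)). In granulocytes *UPF3B* rose from 27.4, 25.8 and 24.9 CPM to 40.4, 43.0 and 39.4 CPM (0.64 (SE 0.064, edgeR adjusted p = 1.01e-10)). *SMG6*, the endonuclease of the pathway, rose by 0.26 in promyelocytes and 0.73 in granulocytes, and *SMG1*, its kinase, by 0.23 and 0.33. *MAGOHB*, a subunit of the exon junction complex, rose by 0.21 in promyelocytes, and *SMG5* and *SMG9* rose by 0.44 and 0.45 in granulocytes.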

How the data were processed

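RNA-seq of 12 libraries (3 in each of 4 groups, assigned from their titles) was analysed from the deposited table of raw read counts per gene. Per the labels and the file header, the authors depleted ribosomal RNA, aligned read pairs to hg38 with STAR 2.5.3a and counted them on GENCODE exons with featureCounts 1.5.2 (primary alignments, both ends mapped, no chimeric pairs, reverse strand). The gene length in the same deposited table (other unit, bases) was used for levels per kb. Symbols were matched for 57577 identifiers.

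Counts of each cell type entered their own fit in edgeR 4.0.16 (R 4.3.3): TMM, filterByExpr (minimum count 10, minimum total 15), the quasi-likelihood test and Benjamini-Hochberg adjustment over all genes tested, at a threshold of 0.05. The difference of responses was the interaction over all 12 libraries. Standard errors are the log2 fold change over the root of F. Printed CPM used TMM sizes over the 12 libraries. With 3 libraries against 3 the smallest two-sided p of an exact permutation test is 0.1, and the tests therefore use the variance edgeR models across genes. The floor of 3 counts covers counting error only.

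Members and lists were chosen with earlier results of these data known. Named were members that passed a test (up to 12 per test, with values in each library), the 3 with the highest level per length, the 4 small RNA rows with the highest mean count, up to 4 called genes of each other list and neighbours of named members. Alternatives were DESeq2 1.42.0 and its size factors, no filter, 1 fit of all 12 libraries, the replicate number as a block, removal of length or of GC content and length trends, a threshold of 0.01, members without those with most exon bases shared with another gene (SNHG21), starts within 500 bases and leaving out each library. In simulated promyelocyte counts of 15960 genes, 94 of 100 changes of 1 on the log2 scale and 73 of 100 of 0.5 were recovered. In simulated granulocyte counts of 16636 genes these were 92 and 72 of 100, and for the interaction over 17597 genes 78 and 51 of 100. Squared differences between replicates of a group were on average 3.61 to 14.6 times those expected from sampling alone, so each library was kept as a sample of its own. A marker gene and a small RNA row are not reported here, though both stayed in the fits. The figures were drawn with matplotlib 3.10.9.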

Additional observations from a re-analysis of the deposited data

Results flagged for a closer look

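The interaction test called 9 members, whose responses to TNF-α thus differed between granulocytes and promyelocytes at an adjusted p under 0.05. Some of these calls were lost under other settings, and cell type and experiment cannot be told apart. The log2 difference of the responses, granulocytes minus promyelocytes, was 1.66 for *SNHG4* (edgeR adjusted p = 1.04e-10), -0.52 for *SNHG14*, -0.41 for *ZFAS1*, 0.46 for *SNHG6*, 0.33 for *SNHG17*, 0.61 for *SNHG19*, 0.43 for *SNHG10*, 0.29 for *SNHG15* and 1.08 for *SNHG9*. *SNHG4*, *SNHG14*, *ZFAS1* and *SNHG6* kept the call under all 5 other settings and with each library left out, while *SNHG15* and *SNHG9* lost it under all 5. *SNHG19* lost it once trends of length and GC content were taken out (0.31) and without promyelocyte vehicle replicate 1 or granulocyte TNF-α replicate 2. *SNHG10* lost it with DESeq2, without the filter on low counts and with some single libraries left out. *SNHG17* lost it only without that filter.

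Of 24 rows of encoded small RNAs tested, 7 (29.2%) had more positive responses in granulocytes and 0 more negative ones. Among all genes tested these shares were 14.1% and 9.88%. The rows named in the text were *SNORA73B* (0.63), *SNORA74D* (1.17), *SCARNA13* (0.94) and *SNORD104* (1.11). Of the 7 neighbours tested on the other strand, *SLC3A2* (0.51) and *ZNFX1* (0.56) had more positive responses in granulocytes and *ZBTB37* (-0.34) a more negative one (28.6% and 14.3%).

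The same test called other snoRNA hosts and related factors, and the values given here are those of the genes named in the text. Among all genes tested 14.1% had more positive and 9.88% more negative responses in granulocytes. Of 29 hosts whose symbols begin like ribosomal protein genes, 3 were more positive (10.3%) and 0 more negative. Of 141 other hosts, 27 were more positive (19.1%) and 3 more negative (2.13%). The longer *MATR3* row (2.14) and *SEC14L1* (0.23), which share exon bases with members, were among the 27. The called hosts included *RPL37* (0.67), *RPS3* (0.30), *RPL39* (0.40), *CHD4* (0.42), *DENND4A* (0.38), *PRPF39* (0.34) and *EIF4A2* (-0.50). Of the 20 snoRNP factors the called genes were *GAR1* (0.51), *SHQ1* (-0.37) and *RPAP3* (-0.39), or 5% more positive and 10% more negative. Of 15 NMD and exon junction factors, 6 had more positive responses (40%) and 0 more negative ones. The 6 included *SMG5* (0.42), *SMG6* (0.52) and *SMG9* (0.48). Every group held 3 libraries, too few for a test of single outlying libraries.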

How the results depend on the processing

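The number of members called higher was 5 to 7 of 29 in promyelocytes under the 8 other settings at the same threshold (6 as reported) and 12 to 14 in granulocytes (14 as reported). With the replicate block it was 5 and 13. The replicate numbers gave no sign of pairing. Same-numbered vehicle and TNF-α libraries had correlations of -0.146 to -0.013 in their deviations from the group means. Libraries of different numbers had -0.098 to 0.149. With 3 libraries per group these values cannot show that the flasks were unpaired. Of the log2 fold changes of called members, 35 of 243 lost the call under another setting, 37 of 234 lost it with 1 library left out, and 0 changed direction. With each library left out, the members called lower in granulocytes numbered 1 to 2 and those with a more positive response in granulocytes 4 to 6, against 7 with all libraries. That number was 4 without promyelocyte vehicle replicate 1, promyelocyte TNF-α replicate 1 or granulocyte vehicle replicate 2, 3 without the filter on low counts, 4 with DESeq2 and 3 at an adjusted p under 0.01. The median difference of the responses was 0.08 over the members, against 0.03 over all genes tested. That of the members turned to -0.0028 without the filter. With GC content and length trends removed, ribosomal protein hosts called higher in granulocytes were 7 instead of 4, snoRNP factors called lower in promyelocytes 3 instead of 1, small RNA rows called lower 1 in each cell type instead of 0, and neighbours in promyelocytes 1 higher and 1 lower instead of 0. With starts within 500 bases, 1 neighbour was called lower in granulocytes instead of 3. The cause was not tested for these, other than the fewer neighbours tested. The GC content and length trend removed, in log2 units, went with treatment in granulocytes. Over genes of at least 60.6% GC it averaged -0.06, -0.11 and -0.03 in granulocyte vehicle libraries and 0.10, 0.07 and 0.03 with TNF-α. In promyelocytes, over genes of at least 60.5% GC, it was 0.10, 0.09 and -0.01 with vehicle and -0.19, -0.04 and 0.06 with TNF-α. The cause of this trend was not tested. Counts on *SNHG9* and on *SNORA74D* in granulocytes were low, which limits the precision there.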
